A study of Homo sapiens with 30 samples.

Results

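The 10 genes described here encode carriers and receptors that brain endothelial cells use to move nutrients between blood and brain: SLC2A1, SLC16A1, SLC7A5, SLC3A2, SLC7A1, SLC38A2, MFSD2A, TFRC, LRP1 and INSR. They were taken by symbol from the deposited table of read counts, in which each of the 10 had exactly 1 row among 63138 genes. RNA was sequenced from hCMEC/D3, a human endothelial line from small brain vessels that has been immortalised, in 30 libraries that form 10 groups of 3. The study stimulated these cells with agents that disturb the barrier, and gave other cells of the same line the extracellular vesicles (small membrane-bound particles) enriched from the medium of the stimulated cells. Control cells had serum-free medium alone for 12 h. The TNF group had tumour necrosis factor at 25 ng/mL, the IL1b group interleukin-1β at 10 ng/mL, the C5a group the complement fragment C5a at 50 ng/mL and the Epinephrine group epinephrine at 200 nM, each for 12 h. Of the groups named with EV, EV-Control had vesicles of unstimulated cells, and EV-TNF, EV-IL1b, EV-Epinephrine and EV-C5a had vesicles of cells given the agent in the name. These cells too were sampled at 12 h. The vesicle dose is not given in the sources used here. All groups are 1 immortalised line grown without the pericytes, astrocytes and blood flow of a brain vessel. The labels do not say that the 3 libraries of a group came from separate cultures, so the p-values measure the spread between these libraries, which may be technical.

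Brain endothelium is sealed by tight junctions, and most polar nutrients cross it only on carriers. Glucose enters through GLUT1 (SLC2A1), lactate and ketone bodies through MCT1 (SLC16A1), and large neutral amino acids through the LAT1 exchanger, a pair of the transport chain SLC7A5 and the heavy chain SLC3A2. MFSD2A carries lysophosphatidylcholine with docosahexaenoic acid and is known for holding down vesicle transport across this endothelium. The transferrin receptor (TFRC), LRP1 and the insulin receptor (INSR) take up their ligands by endocytosis and are the receptors most used to shuttle drugs across the barrier.

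The mRNA of TFRC carries, in its 3′ UTR, hairpins that bind the iron regulatory proteins, and the same kind of hairpin lies in the 5′ UTR of the ferritin mRNAs FTH1 and FTL and of the iron exporter SLC40A1. These stretches are shown because TFRC and FTH1 are among the genes described below that changed. The search asked for a C, 5 bases, CAGTG, 1 base and 5 more bases that pair with the first 5 (G-T pairs allowed), on the sense strand of the longest coding transcript of each of 19669 genes in GENCODE 29. The capitals mark the CAGTG of the loop, and DNA letters are written 5′ to 3′.
TFRC 3′ UTR, chr3:196050985-196051001, minus strand: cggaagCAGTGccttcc
TFRC 3′ UTR, chr3:196050581-196050597, minus strand: cgggagCAGTGtcttcc
TFRC 3′ UTR, chr3:196050516-196050532, minus strand: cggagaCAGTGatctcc
TFRC 3′ UTR, chr3:196050469-196050485, minus strand: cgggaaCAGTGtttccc
FTH1 5′ UTR, chr11:61967580-61967596, minus strand: cttcaaCAGTGcttgga
FTL 5′ UTR, chr19:48965341-48965357, plus strand: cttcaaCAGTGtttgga
SLC40A1 5′ UTR, chr2:189580667-189580683, minus strand: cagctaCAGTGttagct
Coordinates are those of GRCh38. TFRC held 4 such stretches and was the only gene of the 19669 with as many in its 3′ UTR, while 0.61% of genes had at least 1 there and 0.112% had at least 1 in the 5′ UTR.

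Start-site windows of 300 bases (RefSeq, GRCh38.p14) were given for 9 of the 10 genes, all but SLC16A1. They were searched on both strands for 5 sets of letters: TGATGNAA of the amino acid response element, TGACG of the cAMP response element, ACGTG of the hypoxia response element, the κB site by its consensus, and TATAAA. TGATGNAA was in the windows of SLC3A2 and SLC7A1 and in 3.62% of all 35116 windows. TGACG was in those of 7 of the genes (24.6% of all windows), ACGTG in 3 (21.4%), TATAAA in 2 (11.5%) and the κB site in none (1.91%). The 250 bases before the start of TFRC are printed because this gene rose under 3 of the 4 agents, with the letters of the hypoxia element, the cAMP element and the TATA box in capitals, in that order. The stretches around TGATGNAA are those of the amino acid carriers, read on the strand of the gene, and in SLC3A2 the letters run on the opposite strand.
TFRC, chr3:196082091-196082340, minus strand: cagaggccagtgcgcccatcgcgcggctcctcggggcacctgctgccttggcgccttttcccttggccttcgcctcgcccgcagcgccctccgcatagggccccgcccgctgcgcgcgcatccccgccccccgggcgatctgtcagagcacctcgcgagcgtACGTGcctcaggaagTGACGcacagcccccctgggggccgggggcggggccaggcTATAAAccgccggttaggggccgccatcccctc
SLC7A1, chr13:29595663-29595692, minus strand: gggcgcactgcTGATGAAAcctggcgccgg
SLC3A2, chr11:62881719-62881748, plus strand: gtaatgtgcaggactccTTACATCAgctcc
These matches describe the letters only.

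Library totals ran from 16643961 to 22112326 counts, and the 10 genes had between 88 and 24312 counts in a library. Levels are given in CPM, the counts of a gene divided by the library total and set to a common scale, with the trimmed mean of M-values as scaling, and a gene was called where edgeR's quasi-likelihood test gave an adjusted p under 0.05. All 10 endothelial markers examined had at least 10 counts in every library, with a summed level between 700 CPM (EV-C5a) and 1142 CPM (Control). The sums were at most 4.69 CPM for astrocyte, 4.99 CPM for neuron, 3.86 CPM for leukocyte and 0.365 CPM for epithelial markers, and AQP4, S100B and STMN2 were at 0 in every library. Of 7 pericyte and smooth muscle markers 4 had at least 10 counts in every library, led by CSPG4 (338 CPM) and PDGFRB (67.9 CPM), while KCNJ8, ABCC9 and DES stayed under 1 CPM on average. The pericyte sum ran from 337 CPM (Epinephrine) to 502 CPM (EV-Epinephrine), and the part of these marker levels in the results was not tested. In cultures sequenced in bulk, fewer cells that express a gene and less RNA per cell cannot be told apart. The scaling factors of the TNF libraries, 0.842 to 0.861, lay below those of all other libraries, 0.974 to 1.05. With total counts as the only scaling, the median log2 fold change of all genes was -0.288 for TNF and -0.093 for IL1b, so TNF values of the 10 genes that move by over 1.5 times, and that of SLC38A2, are also given on that scaling. There were 2 libraries that stood apart within their groups. Epinephrine replicate 2 had 110 CPM of LRP1 against 158 and 144 CPM in the rest of its group. EV-Control replicate 1 had 1006 CPM of SLC38A2 against 835 and 853 CPM. SLC7A5 was spread over all EV-Control libraries (683, 614 and 522 CPM).

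Divided by exon length, the 10 genes spread over a wide range of levels in Control cells. SLC38A2 and SLC7A5 led at 95.4 ± 2.46 and 93.1 ± 3.28 CPM per kb (SD, n = 3), and their libraries overlapped. Below them came SLC3A2 at 68.7, SLC2A1 at 41.2, SLC16A1 at 36.3, TFRC at 31.6 and SLC7A1 at 21.5 CPM per kb. LRP1 (7.90), INSR (3.13) and MFSD2A (1.63 CPM per kb) were lowest, and from SLC7A5 down no neighbours in the order overlapped. In IL1b cells TFRC reached rank 3 at 75.9 ± 1.83 CPM per kb, behind SLC38A2 and SLC7A5. Over the 10 group means the log2 range was widest for LRP1 (1.55), MFSD2A (1.48), TFRC (1.28) and SLC38A2 (1.03), and narrowest for SLC2A1 (0.46).

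**Figure D1:**
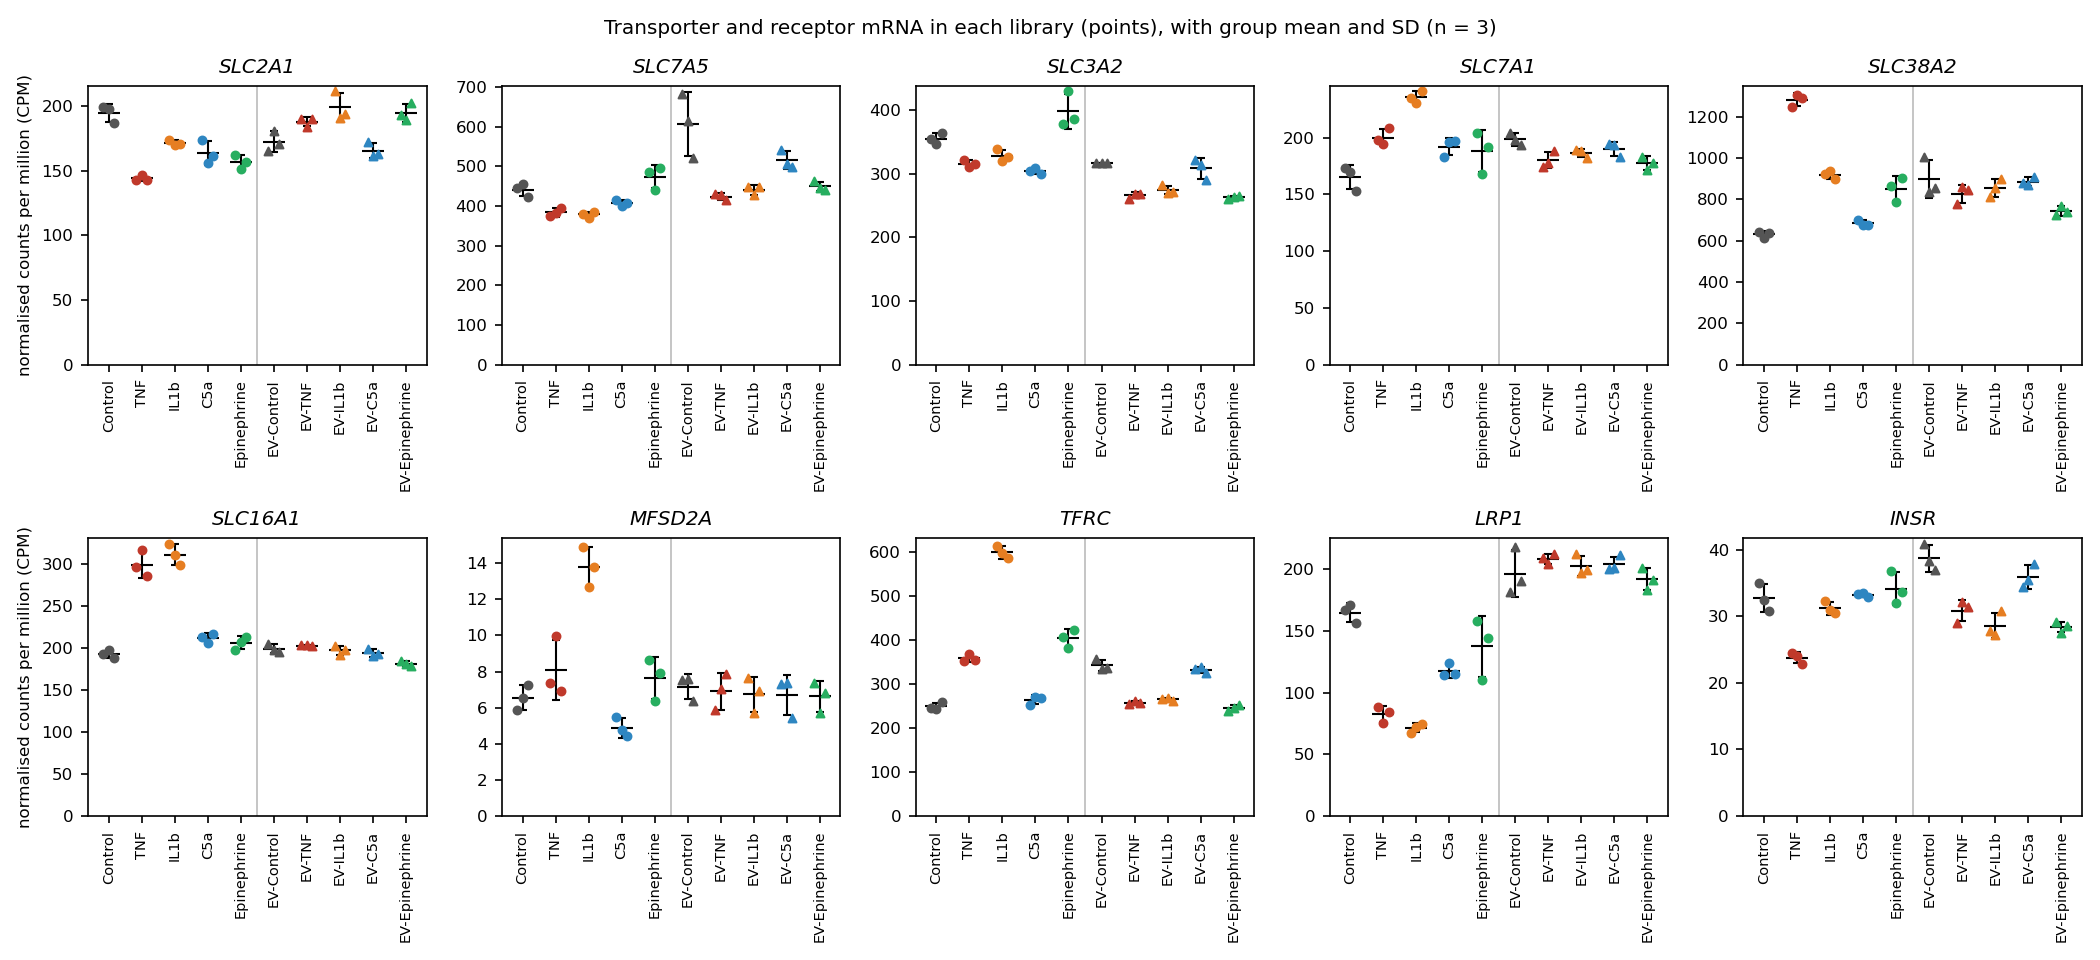
CPM (linear axes from 0) of the 10 genes in all 30 libraries, with circles for cells given an agent, triangles for cells given vesicles and black bars for the group mean and SD (n = 3). TFRC in the IL1b libraries (586 to 614 CPM) sits above every other library, and LRP1 in the TNF and IL1b libraries (67.6 to 87.9 CPM) sits below every other.

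Given directly, TNF and IL1b each moved most of the 10 genes, and C5a and Epinephrine moved fewer. TNF against Control called 9 (4 higher, 5 lower), where 52.7% of the 15908 genes tested were called (27.5% higher, 25.3% lower). IL1b called 8 (5 higher, 3 lower), against 46.6% of all genes (24.0% higher, 22.6% lower). C5a called 6 (3 higher, 3 lower) against 22.6% (11.8% and 10.8%), and Epinephrine called 5 (4 higher, 1 lower) against 25.2% (13.5% and 11.8%). The Epinephrine count was 3, without SLC3A2 and SLC7A1, when only its 2 groups were fitted. With single libraries left out the C5a count and the Epinephrine count each ran from 4 to 6. IL1b and TNF differed from each other in 6 of the genes, 5 of them higher in IL1b, against 41.4% of all genes (19.9% higher, 21.4% lower). All libraries of one group lay on the same side of the other group's for 9 of the 10 genes under TNF (59.6% of all genes), 9 under IL1b (56.3%), 8 under C5a (40.4%), 5 under Epinephrine (33.9%) and 7 between IL1b and TNF (51.5%). The medians of the 10 log2 fold changes were 0.05 for TNF, 0.23 for IL1b, -0.04 for C5a and 0.14 for Epinephrine, where those of all genes lay between -0.012 and 0.009. The comparisons with Control share its libraries.

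With vesicles most calls among the 10 genes were downward. Against EV-Control, EV-TNF called 6 of the 10 (1 higher, 5 lower) against 13.3% of 15918 genes (5.90% higher, 7.42% lower). EV-IL1b called 5 (1 higher, 4 lower) against 14.6% (6.49% and 8.14%), and EV-Epinephrine called 8 (1 higher, 7 lower) against 19.7% (9.12% and 10.5%). In each of the 3 the gene that rose was SLC2A1. The EV-TNF count ran from 4 to 7 with single libraries left out. EV-C5a called none of the 10, against 0.0503% of all genes (8 genes, 0.0126% higher and 0.0377% lower). For EV-C5a edgeR gave 1 of the 10 genes (SLC7A5) and 1202 of all genes an unadjusted p under 0.05, and DESeq2 also called none of the 10. SLC7A5 in EV-C5a was at -0.23 (adjusted p = 0.509), and it was called at -0.33 without EV-Control replicate 3 (adjusted p = 9.76e-08) and at -0.23 without the low-count filter (adjusted p = 2.03e-05). The 95% intervals of the 10 genes for EV-C5a lay within log2 -0.4 and 0.21. The libraries did not overlap for 6 of the 10 genes in EV-TNF (27.1% of all genes), 6 in EV-IL1b (28.5%), none in EV-C5a (10.9%) and 8 in EV-Epinephrine (34.1%). The medians of the 10 were -0.13 for EV-TNF, -0.09 for EV-IL1b, -0.05 for EV-C5a and -0.22 for EV-Epinephrine, where those of all genes lay between -0.004 and 0.007. These comparisons share the EV-Control libraries, and 8 of the 10 genes were called between EV-Control and Control, as given below. A rise or fall against EV-Control is therefore not one against cells without vesicles.

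**Figure D2:**
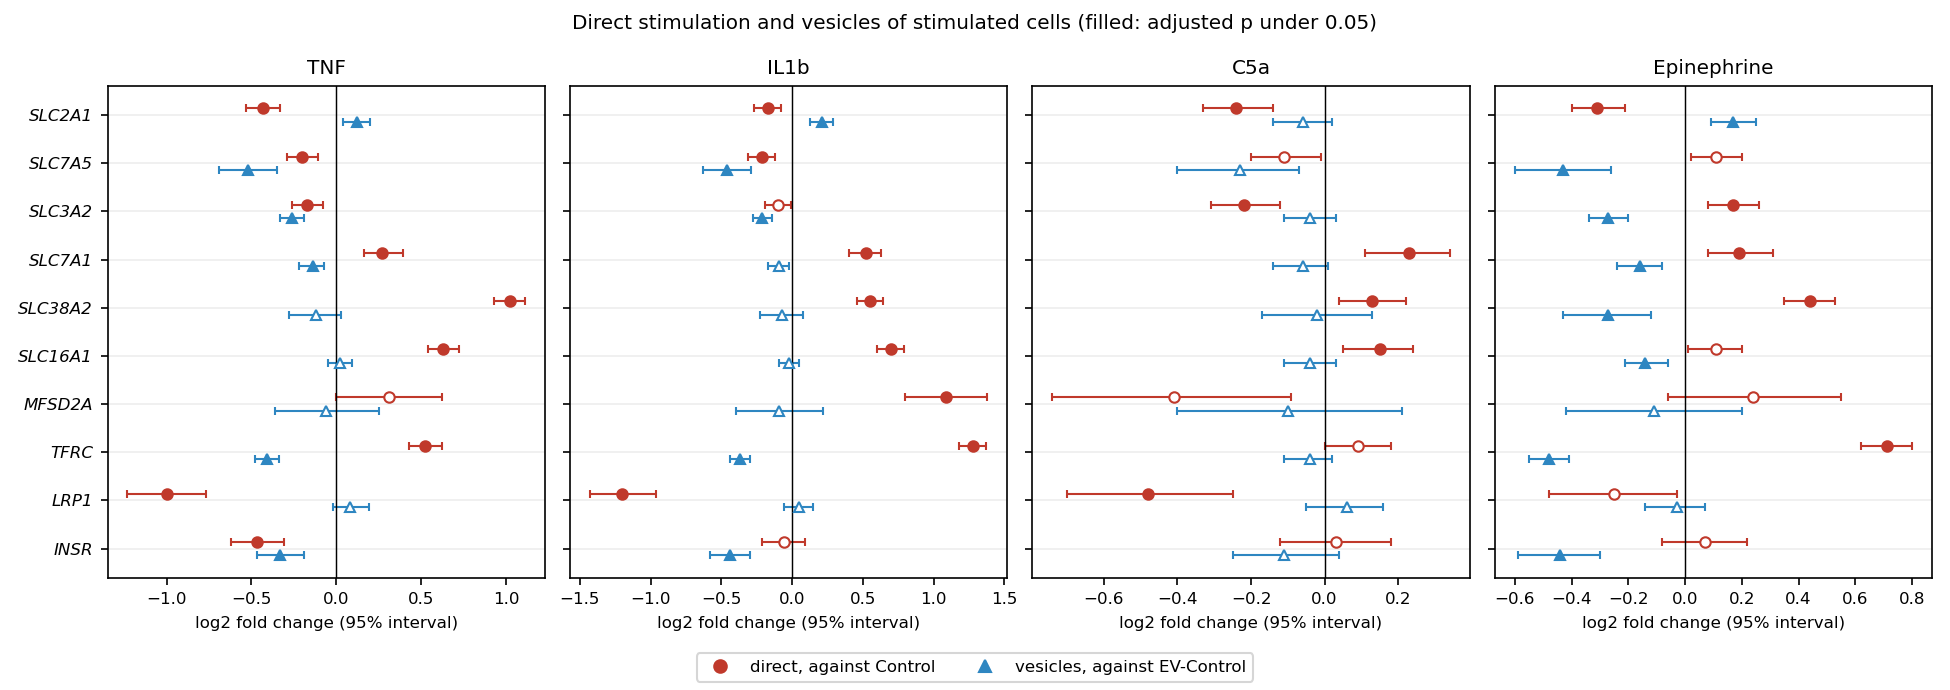
Log2 fold change of each gene with its 95% interval, for cells given the agent against Control (red circles) and for cells given vesicles of cells so treated against EV-Control (blue triangles), with filled symbols where the adjusted p was under 0.05 and a separate axis range in each panel. TFRC lies right of 0 for the agents TNF (0.52), IL1b (1.28) and Epinephrine (0.71) and left of 0 for their vesicles (-0.41, -0.37 and -0.48).

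SLC2A1 (chr1:42925375-42959176, minus strand), the glucose carrier, fell under all 4 agents and rose with 3 of the 4 vesicle preparations. It stood at 199, 198 and 187 CPM in the Control libraries and at 143, 147 and 143 CPM in the TNF libraries. The IL1b libraries had 174, 170 and 171 CPM, the C5a libraries 174, 156 and 161 CPM and the Epinephrine libraries 162, 151 and 157 CPM. Every Control library was above all libraries of the 4 agents. The log2 fold changes were -0.43 for TNF (SE 0.047, adjusted p = 1.03e-09, or -0.7 on total counts alone), -0.17 for IL1b (adjusted p = 0.00269), -0.24 for C5a (adjusted p = 0.000206) and -0.31 for Epinephrine (adjusted p = 5.21e-06). With vesicles it rose from 165, 181 and 171 CPM in EV-Control to 212, 191 and 194 CPM in EV-IL1b, a log2 fold change of 0.21 (SE 0.040, adjusted p = 0.000128). For EV-Epinephrine it was 0.17 (adjusted p = 0.000800). For EV-TNF it was 0.12 (adjusted p = 0.0328), a call that was lost under 8 of 14 other settings, in which the log2 fold change stayed between 0.09 and 0.13. The mean of SLC2A1 in EV-Control (172 CPM) lay below that in Control (194 CPM). EV-TNF, EV-IL1b and EV-Epinephrine, at means of 188, 199 and 195 CPM, were not tested against Control. Exons of this gene overlap those of 2 long non-coding genes, and whether counting used the strand is not given in the sources used here.

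Among the other sugar and monocarboxylate carriers, SLC2A6, a lysosomal member of the GLUT family, rose under TNF from 44.1 ± 3.07 to 283 ± 8.09 CPM (SD, n = 3, log2 fold change 2.68) and under IL1b to 102 ± 8.82 CPM (1.22). SLC2A3, the high-affinity glucose carrier known from neurons, fell under C5a from 45.0 ± 4.81 to 22.7 ± 1.11 CPM (log2 fold change -0.98) and under IL1b to 32.5 ± 2.71 CPM (-0.46). It also fell with vesicles, from 59.7 ± 2.58 CPM in EV-Control to 39.6 ± 3.06 CPM in EV-TNF (log2 fold change -0.59) and 37.9 ± 3.49 CPM in EV-Epinephrine (-0.66). Of the 12 carriers of this list that were tested, TNF called 4 higher and 5 lower, and IL1b called 3 higher and 7 lower. The TNF counts were 3 higher and 7 lower with total counts as the scaling. On that scaling 22.7% of all genes called for TNF, and 38.6% of those for IL1b, were higher. The counts of this and the following lists are to be read beside these shares and those of all genes given above for each comparison.

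Most of the genes of glucose use tested rose under both cytokines. Of 15 tested, 12 rose and none fell under TNF (median log2 fold change 0.39), and 12 rose and 1 (TXNIP, -0.51) fell under IL1b (0.3). Over all genes the shares called were 27.5% higher and 25.3% lower for TNF and 24.0% and 22.6% for IL1b. On total counts alone the counts of the list were 7 higher and 3 lower for TNF and 10 higher and 2 lower for IL1b. PFKFB3, whose product sets the level of the main activator of phosphofructokinase, rose from 44.0 ± 2.35 to 331 ± 11.6 CPM under TNF (log2 fold change 2.91). HK2, the inducible hexokinase, rose from 11.4 ± 0.162 to 36.2 ± 1.65 CPM under TNF (1.67) and to 38.2 ± 1.10 CPM under IL1b (1.75). Epinephrine called 8 of the 15 higher and 2 lower, with LDHA, the lactate dehydrogenase subunit, up from 800 ± 48.0 to 1146 ± 48.3 CPM (0.53) and TXNIP, an inhibitor of glucose uptake, down from 167 ± 8.45 to 89.4 ± 1.33 CPM (-0.89). The mean of LDHA was 1285 CPM under TNF and 1363 CPM under IL1b, so its higher level was not particular to Epinephrine. With vesicles the calls ran downward: EV-TNF called none higher and 10 lower, and EV-IL1b none higher and 8 lower, with medians of -0.1 and -0.09. EV-Epinephrine called none higher and 4 lower, or 2 and 2 on total counts alone.

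SLC16A1 (chr1:112911847-112957013, minus strand), the monocarboxylate carrier MCT1, rose under both cytokines. It stood at 193, 197 and 188 CPM in the Control libraries, at 296, 316 and 285 CPM in the TNF libraries and at 324, 310 and 299 CPM in the IL1b libraries. Neither cytokine group overlapped Control, and the cytokine groups overlapped each other. The log2 fold change was 0.63 for TNF (SE 0.046, adjusted p = 3.23e-14), or 0.36 on total counts alone, and 0.7 for IL1b (SE 0.046, adjusted p = 5.76e-15). The C5a value was 0.15 (adjusted p = 0.0178), and it missed the threshold without Control replicate 3, C5a replicate 1 or C5a replicate 3. Under Epinephrine SLC16A1 was at 0.11 (adjusted p = 0.0904), and it was called without Epinephrine replicate 1 (0.13, adjusted p = 0.0414). EV-Epinephrine lowered it to 184, 181 and 179 CPM from 205, 197 and 195 CPM in EV-Control (-0.14, adjusted p = 0.00371). Reads of the antisense gene SLC16A1-AS1, whose exons overlap, averaged 9.73 CPM and rose by 0.7 and 0.93 on the log2 scale under TNF and IL1b. Its sister carrier SLC16A3 (MCT4, the lactate exporter of glycolytic cells) rose under IL1b from 291 ± 7.07 to 434 ± 14.9 CPM (log2 fold change 0.59).

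The amino acid carriers split into those that rose under cytokines and those that fell slightly. SLC38A2 (chr12:46358189-46372867, minus strand), the sodium-coupled carrier SNAT2 of small neutral amino acids, rose most. It stood at 640, 611 and 638 CPM in the Control libraries and at 1246, 1306 and 1292 CPM in the TNF libraries, 2.03-fold higher (log2 fold change 1.02, SE 0.044, adjusted p = 8.34e-21). With total counts as the scaling it was 0.75. The IL1b libraries had 924, 936 and 896 CPM (0.55, adjusted p = 7.83e-13) and the Epinephrine libraries 862, 786 and 904 CPM (0.44, adjusted p = 8.78e-10), all above Control and below TNF. The C5a value was 0.13 (adjusted p = 0.0281), which missed the threshold in 5 of the other settings. Among vesicle groups only EV-Epinephrine was called, at 722, 768 and 739 CPM against 1006, 835 and 853 CPM in EV-Control (-0.27, adjusted p = 0.0183). That call was lost when only these 2 groups were fitted and without EV-Epinephrine replicate 1 or 3.

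SLC7A1 (chr13:29509410-29595688, minus strand), the cationic amino acid carrier CAT1 that brings in arginine and lysine, rose most under IL1b, from 173, 170 and 153 CPM in Control to 235, 230 and 241 CPM (log2 fold change 0.52, SE 0.056, adjusted p = 2.25e-09). Its values for TNF, C5a and Epinephrine were 0.27, 0.23 and 0.19 (adjusted p = 0.000110, 0.00314 and 0.00967). The TNF value was 0 (adjusted p = 0.986) on total counts alone, so the direction for TNF rests on the scaling. The Epinephrine libraries (204, 168 and 192 CPM) overlapped Control, and this call was lost without Control replicate 3 or Epinephrine replicate 1. It was lower in EV-TNF and EV-Epinephrine (-0.14 and -0.16, adjusted p = 0.00592 and 0.00115), the former not without EV-TNF replicate 1 (adjusted p = 0.0640).

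Both chains of LAT1 were called lower in EV-TNF, EV-IL1b and EV-Epinephrine, and neither was called in EV-C5a. SLC7A5 (chr16:87830023-87869488, minus strand) stood at 445, 455 and 424 CPM in Control and fell to 374, 382 and 396 CPM under TNF (log2 fold change -0.2, adjusted p = 0.000256, or -0.48 on total counts alone) and to 379, 371 and 386 CPM under IL1b (-0.21, adjusted p = 0.000152). The C5a and Epinephrine values of SLC7A5 were -0.11 and 0.11 (adjusted p = 0.0884 and 0.0648), called in 2 and 1 of 14 other settings. Its largest differences were among vesicle groups, from 683, 614 and 522 CPM in EV-Control to 430, 427 and 414 CPM in EV-TNF (-0.52, SE 0.076, adjusted p = 0.000996). EV-IL1b gave -0.46 (adjusted p = 0.00199) and EV-Epinephrine -0.43 (adjusted p = 0.00228). The EV-Control libraries were spread widely (SD 80.4 CPM), and in fits of only the groups compared the adjusted p was 0.0594, 0.0834 and 0.0753. Without EV-Control replicate 1, the highest, the values were -0.43, -0.37 and -0.34, all still called. The mean was 606 CPM in EV-Control and 442 CPM in Control. EV-TNF, EV-IL1b and EV-Epinephrine, at means of 424, 441 and 450 CPM, were not tested against Control.

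SLC3A2 (chr11:62856102-62888875, plus strand), the heavy chain that LAT1 and several other exchangers need to reach the membrane, was measured closely in EV-Control (318, 317 and 317 CPM). It fell to 261, 269 and 269 CPM in EV-TNF (log2 fold change -0.26, SE 0.035, adjusted p = 7.58e-08), to 282, 270 and 271 CPM in EV-IL1b (-0.21, adjusted p = 6.28e-06) and to 261, 263 and 265 CPM in EV-Epinephrine (-0.27, adjusted p = 2.18e-08). None of these libraries reached the EV-Control level. Among the agents it fell under TNF (-0.17, adjusted p = 0.00159, or -0.45 on total counts alone) and C5a (-0.22, adjusted p = 0.000433) and rose under Epinephrine (0.17, adjusted p = 0.00368), where replicate 2 was the highest at 430 CPM. Without it the Epinephrine value was 0.12 and still called, and in a fit of only these groups the adjusted p was 0.0611. The IL1b value of SLC3A2 was -0.1 (adjusted p = 0.0575), with no overlap with Control, and was called in 4 of 14 other settings.

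Other amino acid carriers gave larger changes. SLC7A2, the cytokine-inducible cationic carrier CAT2, rose under TNF from 89.4 ± 1.58 to 1146 ± 14.7 CPM (SD, n = 3, log2 fold change 3.68) and under IL1b to 427 ± 14.1 CPM (2.26). SLC38A5, a glutamine carrier of the SNAT family, rose from 31.7 ± 2.76 to 95.7 ± 3.21 CPM under TNF (1.59) and to 70.9 ± 4.02 CPM under IL1b (1.17). SLC1A1, a glutamate carrier, fell under TNF from 5.62 ± 0.238 to 1.17 ± 0.238 CPM (-2.27) and under IL1b to 2.66 ± 0.257 CPM (-1.07). SLC7A11, which imports cystine in a pair with SLC3A2, rose under Epinephrine from 278 ± 3.22 to 529 ± 64.7 CPM (0.94) and fell in EV-TNF (-0.71), EV-IL1b (-0.58, lost when only these groups were fitted) and EV-Epinephrine (-0.67). SLC6A6, the taurine carrier, fell from 90.6 ± 3.87 CPM in EV-Control to 67.3 ± 1.27 CPM in EV-TNF (-0.43) and 63.9 ± 6.79 CPM in EV-IL1b (-0.51). Of 20 carriers tested, IL1b called 10 higher and 4 lower and TNF 7 higher and 5 lower. With total counts as the scaling these were 8 and 5 for IL1b and 3 and 11 for TNF. C5a called 5 higher and 3 lower, EV-TNF none higher and 4 lower, EV-IL1b 3 and 3, and EV-Epinephrine 3 and 4.

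Genes of the amino acid stress response, which the factor ATF4 drives when amino acids run short, were called in both directions. TNF called 7 of 18 higher and 8 lower, IL1b 5 higher and 8 lower, and EV-Epinephrine 1 higher and 6 lower. With total counts as the scaling TNF called 2 higher and 9 lower (median -0.33) and IL1b 4 higher and 10 lower. ATF3, an early stress factor, stood at 232 ± 42.3 CPM in Control, rose to 806 ± 161 CPM under TNF (log2 fold change 1.8) and fell to 50.0 ± 3.72 CPM under IL1b (-2.2) and 37.4 ± 3.66 CPM under C5a (-2.62). With vesicles ATF3 fell from 589 ± 68.6 CPM in EV-Control to 119 ± 16 CPM in EV-Epinephrine (-2.31). PHGDH, the first enzyme of serine synthesis, rose from 6.0 ± 0.731 CPM in EV-Control to 13.4 ± 1.52 CPM in EV-TNF (1.16) and 13.9 ± 0.744 CPM in EV-Epinephrine (1.22).

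MFSD2A (chr1:39955112-39969968, plus strand) had the lowest counts of the 10 and was called under IL1b but under no other agent and with no vesicles. The Control libraries had 5.87, 6.52 and 7.26 CPM and the IL1b libraries 14.9, 12.7 and 13.8 CPM, with no overlap. It was 2.12-fold higher (log2 fold change 1.09, SE 0.14, adjusted p = 7.34e-08), and IL1b also exceeded TNF (0.77, adjusted p = 2.36e-05), while its difference from C5a and Epinephrine was not tested. TNF gave 0.31 (95% interval 0 to 0.62, adjusted p = 0.0828) and C5a -0.41 (-0.74 to -0.09, adjusted p = 0.0607), with all C5a libraries (5.48, 4.76 and 4.42 CPM) below Control. The TNF value was 0.04 on total counts alone (adjusted p = 0.851) and was called without TNF replicate 3 (0.42, adjusted p = 0.0362). The C5a value was called in a fit of only its 2 groups (adjusted p = 0.0388) and at a mean count of at least 50 (-0.43, adjusted p = 0.0469). The 95% intervals for the 4 vesicle groups ran from -0.42 to 0.25.

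Of 19 other carriers of lipids, vitamins and nucleosides tested, TNF called 6 higher and 9 lower and IL1b 6 and 6, and EV-Epinephrine called 6 higher and 2 lower. The TNF counts were 3 and 11 with total counts as the scaling. SLC19A2, a thiamine carrier, rose under TNF from 15.7 ± 1.63 to 37.7 ± 3.90 CPM (log2 fold change 1.26) and under IL1b to 32.3 ± 2.81 CPM (1.05). It fell from 29.9 ± 9.89 CPM in EV-Control to 15.3 ± 1.14 CPM in EV-TNF (-0.96), a call lost when only these groups were fitted. FABP4, a fatty acid binding protein of endothelium and fat, rose from 16.2 ± 1.24 CPM in EV-Control to 24.6 ± 0.658 CPM in EV-TNF (0.6), 25.3 ± 2.16 CPM in EV-IL1b (0.64) and 30.1 ± 1.73 CPM in EV-Epinephrine (0.9). SLC27A3, a protein of the fatty acid transport family, fell under TNF (-1.18) and IL1b (-0.85).

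TFRC (chr3:196027183-196082189, minus strand), the receptor whose mRNA carries the 4 hairpins printed above, was called higher under 3 of 4 agents and lower with 3 of 4 vesicle preparations, and every one of these calls held in all settings run. The Control libraries had 245, 244 and 258 CPM, the TNF libraries 352, 368 and 354 CPM, the IL1b libraries 614, 597 and 586 CPM and the Epinephrine libraries 407, 381 and 423 CPM. These 4 groups did not overlap, in the order Control, TNF, Epinephrine and IL1b. Under IL1b it was 2.42-fold higher (log2 fold change 1.28, SE 0.045, adjusted p = 1.11e-22), under Epinephrine 1.63-fold (0.71, adjusted p = 1.78e-14) and under TNF 1.44-fold (0.52, adjusted p = 2.40e-12), or 0.25 on total counts alone. IL1b exceeded TNF by 0.75 (adjusted p = 2.05e-16). The C5a value was 0.09 (adjusted p = 0.150). With vesicles TFRC fell, from 357, 334 and 336 CPM in EV-Control to 255, 262 and 256 CPM in EV-TNF (-0.41, SE 0.034, adjusted p = 1.83e-14), 266, 268 and 262 CPM in EV-IL1b (-0.37, adjusted p = 1.06e-12) and 239, 246 and 252 CPM in EV-Epinephrine (-0.48, adjusted p = 7.69e-17). The EV-C5a libraries, at 333, 338 and 324 CPM, overlapped EV-Control (-0.04, 95% interval -0.11 to 0.02). EV-Control itself lay above Control, at a mean of 342 CPM against 249 CPM. The means of EV-TNF (258 CPM), EV-IL1b (265 CPM) and EV-Epinephrine (246 CPM) lay near that of Control, and these groups were not tested against it.

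Iron genes moved with the cytokines in both directions. IL1b called 9 of 14 higher and 4 lower (median log2 fold change 0.51) and TNF 8 higher and 5 lower (0.22). The TNF counts were 4 higher and 6 lower with total counts as the scaling, with a median of -0.06. EV-TNF and EV-IL1b each called 1 higher and 3 lower, and EV-Epinephrine 1 higher and 5 lower. FTH1, the ferritin heavy chain, rose from 599 ± 35.9 to 1765 ± 93.5 CPM under TNF (1.56) and 1197 ± 42.1 CPM under IL1b (1.01), while FTL, the light chain, fell from 1614 ± 18.6 to 980 ± 27.3 CPM under TNF (-0.72). SLC11A2, the endosomal iron carrier DMT1 that works behind TFRC, rose from 55.6 ± 3.69 to 147 ± 2.44 CPM under IL1b (1.42) and to 114 ± 1.10 CPM under TNF (1.03). STEAP2, of the family of endosomal ferrireductases, rose under IL1b from 8.67 ± 0.0956 to 22.8 ± 0.692 CPM (1.4). STEAP3, the reductase of the transferrin cycle, rose under Epinephrine from 15.6 ± 0.838 to 27.3 ± 3.04 CPM (0.82). ACO1, which encodes iron regulatory protein 1, rose under IL1b from 448 ± 8.02 to 653 ± 13.8 CPM (0.55). It fell with vesicles from 493 ± 5.74 CPM in EV-Control to 397 ± 4.62 CPM in EV-TNF (-0.32), 389 ± 6.75 CPM in EV-IL1b (-0.35) and 390 ± 7.55 CPM in EV-Epinephrine (-0.34).

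LRP1 (chr12:57128493-57213351, plus strand), a large scavenger receptor known for clearing amyloid-β and apolipoprotein E particles, fell under 3 agents and was not called with vesicles when all libraries were used. The Control libraries had 167, 171 and 156 CPM, the TNF libraries 87.9, 75.5 and 84.2 CPM and the IL1b libraries 67.6, 71.9 and 74.7 CPM. The C5a libraries had 114, 124 and 115 CPM, between Control and the cytokines, with no overlap. LRP1 was 2.00-fold lower under TNF (log2 fold change -1, SE 0.11, adjusted p = 2.97e-06), 2.29-fold lower under IL1b (-1.2, adjusted p = 7.19e-07) and 1.39-fold lower under C5a (-0.48, adjusted p = 0.00496). Epinephrine gave -0.25 (adjusted p = 0.10), with replicate 2 well below replicate 1, and -0.12 without replicate 2 (adjusted p = 0.114). It was called at -0.26 by DESeq2 (adjusted p = 0.0266), at -0.26 in a fit of all 30 libraries, at -0.25 without the low-count filter and at -0.36 without Epinephrine replicate 1. With vesicles the values were 0.08 for EV-TNF, 0.05 for EV-IL1b, 0.06 for EV-C5a and -0.03 for EV-Epinephrine, with 95% intervals between -0.14 and 0.19. Without EV-Control replicate 2, the highest of its group, LRP1 was called in EV-TNF (0.17, adjusted p = 0.00617) and EV-IL1b (0.13, adjusted p = 0.0437). Its exons overlap those of STAT6 on the other strand. STAT6 rose under TNF by 0.99 on the log2 scale (211 to 419 CPM) and under IL1b by 0.22, opposite to LRP1.

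Among 23 other receptors and coat genes of transcytosis, TNF called 10 higher and 8 lower and IL1b 6 higher and 9 lower. Of all genes TNF called 27.5% higher and 25.3% lower and IL1b 24.0% and 22.6%. With total counts as the scaling the TNF counts of the list were 4 and 17 and the IL1b counts 4 and 10. EV-TNF and EV-IL1b each called none higher and 5 lower. LRP5, a Wnt co-receptor of the same family, fell under TNF from 245 ± 9.72 to 127 ± 4.29 CPM (log2 fold change -0.95) and under IL1b to 160 ± 2.71 CPM (-0.6). FCGRT, the receptor that recycles IgG, fell under TNF (-0.75), IL1b (-0.84), C5a (-0.42) and Epinephrine (-0.55) from 55.9 ± 2.86 CPM in Control. CAV1, the scaffold of caveolae, rose from 221 ± 16.1 to 521 ± 14.4 CPM under TNF (1.24).

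INSR (chr19:7112255-7294034, minus strand) was called under TNF and under no other agent. It fell from 35.0, 32.4 and 30.8 CPM in Control to 24.4, 24.0 and 22.8 CPM (log2 fold change -0.47, SE 0.077, adjusted p = 3.27e-06), or -0.74 on total counts alone. The IL1b, C5a and Epinephrine values were -0.06, 0.03 and 0.07, and their libraries overlapped Control. IL1b and TNF differed by 0.41 (adjusted p = 4.83e-05), and TNF was not tested against C5a or Epinephrine. INSR fell with vesicles from 40.9, 38.3 and 36.9 CPM in EV-Control to 29, 32.1 and 31.4 CPM in EV-TNF (-0.33, adjusted p = 0.000594), 27.8, 27.2 and 30.7 CPM in EV-IL1b (-0.44, adjusted p = 6.36e-06) and 29.1, 27.5 and 28.5 CPM in EV-Epinephrine (-0.44, adjusted p = 3.96e-06). No library of these 3 groups reached EV-Control.

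Of 18 genes of insulin signalling, TNF called 9 higher and 2 lower, which became 4 higher and 12 lower with total counts as the scaling. IL1b called 4 and 5, EV-TNF 2 and 3, EV-IL1b 2 and 6, and EV-Epinephrine 2 and 5. IRS2, an adaptor of the insulin receptor, fell from 11.3 ± 1.26 CPM in Control to 2.96 ± 0.185 CPM under IL1b (log2 fold change -1.92) and 3.41 ± 0.353 CPM under C5a (-1.71). It fell from 35.4 ± 9.21 CPM in EV-Control to 16.3 ± 1.06 CPM in EV-Epinephrine (-1.11). GRB10, an adaptor that binds and restrains the receptor, rose from 41.2 ± 0.997 to 78.0 ± 1.17 CPM under TNF (0.92) and to 61.9 ± 0.593 CPM under IL1b (0.6).

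**Figure D3:**
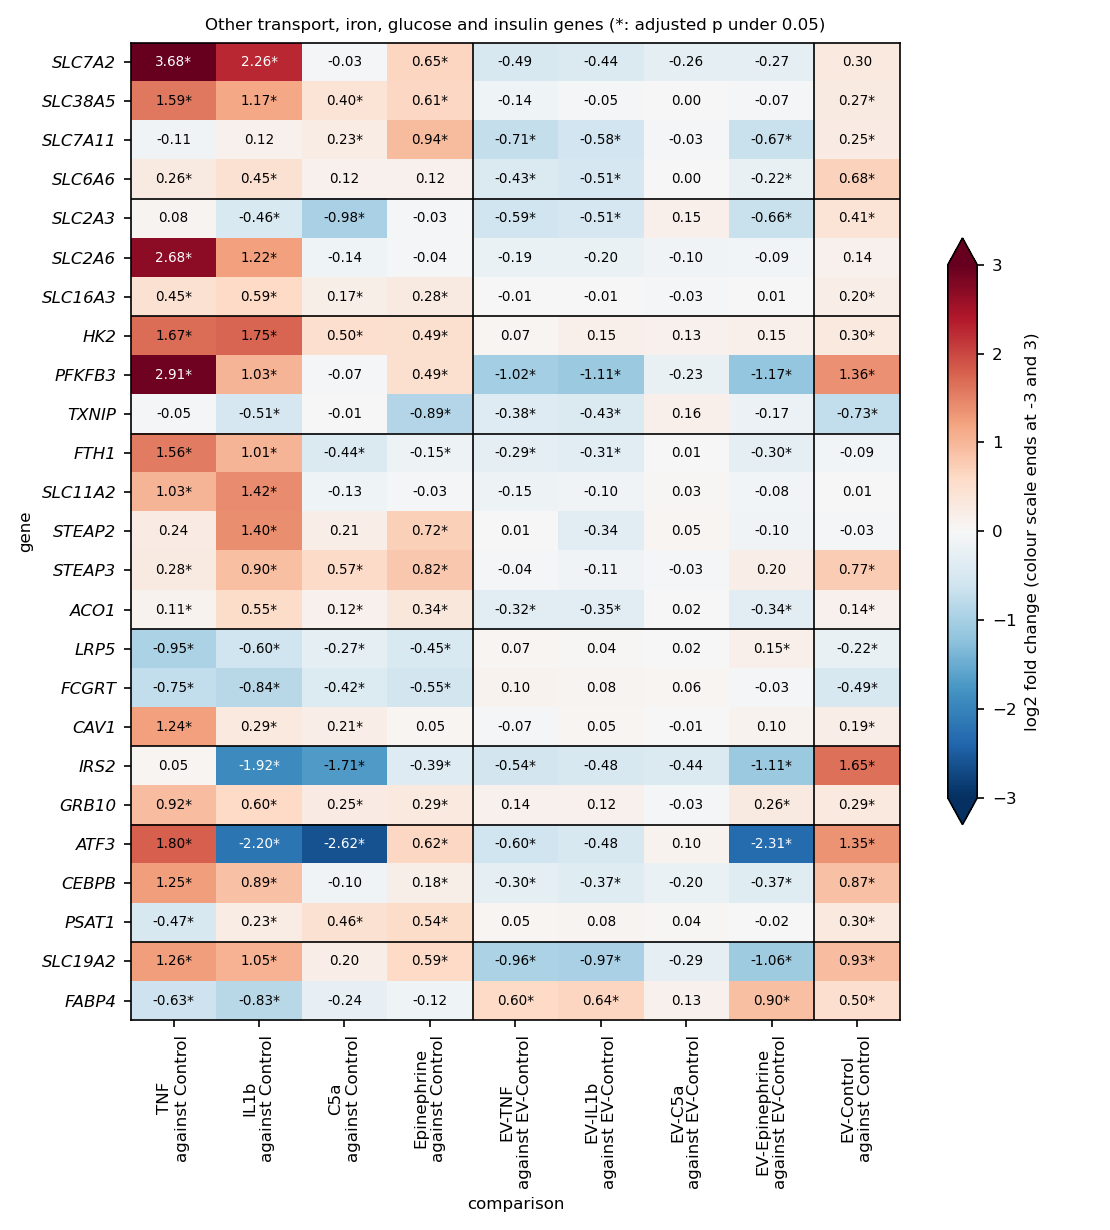
Log2 fold changes of 25 other genes, picked from the lists after their values were seen, in 9 comparisons, with the value printed in each cell, colour from -3 (blue) to 3 (red) and an asterisk where the adjusted p was under 0.05. Values of SLC7A2 (3.68), PFKFB3 (2.91) and SLC2A6 (2.68) under TNF are the highest, and the EV-C5a column has no asterisk.

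EV-Control cells differed from Control cells in most of the 10 genes. Of the 10, 8 were called (6 higher, 2 lower), against 21.9% of 16691 genes (12.1% higher, 9.80% lower), and the libraries of 8 did not overlap (34.9% of all genes), with a median log2 fold change of 0.24. SLC38A2 (0.51, SE 0.054, adjusted p = 2.40e-08), TFRC (0.46, SE 0.039, adjusted p = 1.86e-14) and SLC7A5 (0.46, SE 0.058, adjusted p = 6.21e-07) were higher, with no overlap of libraries. SLC7A1 (0.26), LRP1 (0.25) and INSR (0.24) were higher by less. SLC2A1 (-0.17, adjusted p = 0.00232) and SLC3A2 (-0.16, adjusted p = 0.00149) were lower. The LRP1 call (adjusted p = 0.0463) was lost under 7 other settings, among them leaving out any 1 Control library, the INSR call without Control replicate 3 or EV-Control replicate 1, and the SLC7A5 call when only these 2 groups were fitted (adjusted p = 0.0522). Of 15 genes of glucose use 10 were higher and 1 lower in EV-Control, or 7 and 1 on total counts alone. IRS2 was higher (1.65), as were ATF3 (1.35), STEAP3 (0.77) and SLC6A6 (0.68), and FCGRT was lower (-0.49). The vesicles themselves and any other handling that differed between these 2 groups cannot be told apart.

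The test of the vesicle response minus the direct response asked where the 2 exposures differed. For TNF it called 7 of the 10 genes (2 higher, 5 lower) against 44.7% of all genes (21.3% higher, 23.4% lower), and for IL1b 9 (2 higher, 7 lower) against 35.2% (16.9% and 18.3%). For C5a it called 5 (3 higher, 2 lower) against 11.9% (5.87% and 6.05%) and for Epinephrine 8 (1 higher, 7 lower) against 24.2% (11.7% and 12.5%). The C5a count ranged from 2 to 5 when single libraries were left out. TFRC had negative differences of -1.63 for IL1b (SE 0.056, adjusted p = 1.29e-33), -1.18 for Epinephrine (adjusted p = 8.16e-26) and -0.93 for TNF (adjusted p = 2.55e-22) on the log2 scale. LRP1 had positive ones of 1.25 for IL1b (SE 0.13, adjusted p = 7.23e-08) and 1.09 for TNF (adjusted p = 3.09e-07). SLC38A2 differed by -1.15 and SLC16A1 by -0.61 for TNF, and MFSD2A by -1.17 for IL1b. SLC2A1 was positive for all 4 agents (0.55, 0.39, 0.19 and 0.49 for TNF, IL1b, C5a and Epinephrine), and of these the C5a call was lost in 10 settings. Genes of glucose use were called lower in 15 of 15 for TNF (median -0.6), or in 8 with 1 higher on total counts alone, and in 12 of 15 for IL1b (-0.37). SLC3A2 for TNF (-0.08, adjusted p = 0.236) turned to 0.2 (adjusted p = 0.00158) on total counts alone. Each of these tests uses both sets of control libraries, which differed from each other as given above.

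The genes most like the 3 with the widest range were sought over the 10 group means of log2 CPM, among 10549 genes. For LRP1 they were CDC14B (r = 0.988), SARAF (0.976) and SMARCA1 (0.976). For MFSD2A they were CSF3 (0.972), TRABD (0.96) and CSNK1G3 (0.939), where CSF3, the granulocyte growth factor, ran from -0.99 to 7.65 log2 CPM. For TFRC they were DDX18 (0.968), PGK1 (0.966) and GNL3 (0.958). These correlations are over 10 points that share the same libraries and scaling and are given as a description.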

How the data were processed

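Per the labels' protocols, cells were lysed on QIAshredder columns, RNA was isolated with RNeasy, and the NEBNext Ultra kit gave the libraries. Unnormalised read counts per Ensembl gene were deposited by the authors for all 30 libraries in 1 table. The submitters' processing notes name FastQC, STAR, DESeq2, R 4.4.1 and the build hg38, and the counting program, annotation and use of strand are not given in the sources used here. All 30 libraries carry batch 1. Of 63147 lines, 4 had no gene ID (2 of them with counts, 0.00079% to 0.0016% of a library), 2 gene IDs had no counts, and 3 repeated IDs were dropped, leaving 63138 genes. No molecular identifiers are described, so counting precision may overstate the number of molecules.

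The count tests ran under R 4.3.3 in edgeR 4.0.16, with filterByExpr, trimmed-mean-of-M-values scaling and the two-sided quasi-likelihood test with robust dispersion. Adjustment was by Benjamini-Hochberg over all genes of a comparison, with a threshold of 0.05. Direct comparisons used the 15 direct libraries (15908 genes), vesicle comparisons the 15 vesicle libraries (15918 genes), and EV-Control against Control and the differences of responses all 30 libraries (16691 genes). DESeq2 1.42.0 was an alternative, beside other scalings, filters, library sets, a replicate block and leaving out each library. The SE is the log2 fold change divided by the square root of the F statistic. CPM used factors from all 30 libraries, and CPM per kb the exon length in GENCODE 29.

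On simulated data for TNF against Control (15565 genes), 68.2% of changes of 0.5 and 77.8% of changes of 1 on the log2 scale were found. For EV-TNF against EV-Control (15586 genes) these were 62.9% and 78.2%. The simulated TNF data held 88 changes of 0.5 and 108 of 1, and the simulated EV-TNF data 97 and 101. Unchanged genes called numbered 8 for TNF and 5 for EV-TNF. In the real data 52.7% of genes were called for TNF and 13.3% for EV-TNF, far more than were changed here. The shares found therefore need not hold for the real comparisons.

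The 10 genes and the gene lists (8 lists of related genes) were chosen with earlier results of these data known. A gene of a list was named in a comparison if it was called, reached 5 CPM on average in whichever group was higher, did not overlap between groups, and had 1 of the 2 largest rises or falls of its list there. A few others (values of a named gene in further comparisons) were added after their values were seen. Of the list genes eligible for naming, 1 is not reported here.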

Additional observations from a re-analysis of the deposited data

Results flagged for a closer look

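The response to vesicles differed from the response to the agent itself in 29 of 40 tests of the 10 genes (edgeR's quasi-likelihood test of the difference, all genes adjusted together). Of all genes 44.7% were called in this test for TNF, 35.2% for IL1b, 11.9% for C5a and 24.2% for Epinephrine. The tests share the Control and EV-Control libraries. The values below are the vesicle response minus the direct response on the log2 scale.

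SLC2A1 differed for all 4 agents, by 0.55 for TNF, 0.39 for IL1b, 0.19 for C5a and 0.49 for Epinephrine. SLC7A1 (-0.41, -0.6, -0.28 and -0.35) and SLC16A1 (-0.61, -0.71, -0.18 and -0.23) also differed for TNF, IL1b, C5a and Epinephrine in that order, with the opposite sign. SLC38A2 differed by -1.15 for TNF, -0.61 for IL1b and -0.71 for Epinephrine. SLC7A5 differed by -0.32 for TNF, -0.24 for IL1b and -0.53 for Epinephrine. SLC3A2 differed by 0.19 for C5a and -0.43 for Epinephrine.

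TFRC differed by -0.93 for TNF, -1.63 for IL1b and -1.18 for Epinephrine. LRP1 differed by 1.09 for TNF, 1.25 for IL1b and 0.54 for C5a. INSR differed by -0.37 for IL1b and -0.51 for Epinephrine, and MFSD2A by -1.17 for IL1b.

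Of these calls, those for C5a of SLC2A1, SLC3A2 and SLC16A1 were lost under 10, 10 and 5 other settings, that of SLC7A5 for IL1b under 5, and those of SLC7A1 and SLC7A5 for TNF on total counts alone (-0.13 and -0.03). The SLC7A5 call for TNF was also lost with only the groups compared fitted (-0.31, adjusted p = 0.0577).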

How the results depend on the processing

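Of 140 tests of the 10 genes, 90 were called. Of these, 70 were called in the same direction under every alternative run and 19 lost the call under at least 1. The last 1, SLC7A1 under TNF, lost its call at a value of 0 whose sign had turned. Of 50 tests not called, 17 were called in the same direction under at least 1 alternative. Beside these, SLC7A5 in IL1b against TNF and SLC3A2 in the TNF difference of responses were called with the opposite sign on total counts alone. The causes of the changes below were not tested.

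On total counts alone SLC7A1 under TNF went to 0, SLC7A5 in IL1b against TNF to 0.18 and SLC3A2 in the TNF difference of responses to 0.2. That scaling moved the share of called genes that were higher from 52.1% to 22.7% for TNF, from 51.5% to 38.6% for IL1b, from 48.1% to 76.1% for IL1b against TNF, from 46.4% to 60.2% for EV-Epinephrine, from 55.3% to 42.6% for EV-Control against Control, and from 47.7% to 76.7% and 48.1% to 62.4% for the TNF and IL1b differences of responses. For EV-C5a it went from 25.0% of 8 genes to 40.0% of 5.

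Other reversals were of values near 0 that were not called, when 1 library was left out. Over the libraries left out, INSR ran from -0.1 to 0 in IL1b and from -0.01 to 0.09 in C5a, and SLC7A5 from -0.03 to 0.01 in IL1b against TNF. MFSD2A ran from -0.16 to 0.05 in EV-TNF, -0.19 to 0.02 in EV-IL1b and -0.17 to 0.03 in EV-C5a. SLC38A2 ran from -0.12 to 0.02 in EV-IL1b and -0.07 to 0.07 in EV-C5a. SLC3A2 ran from -0.07 to 0 in EV-C5a, and LRP1 from -0.01 to 0.13 in EV-IL1b and -0.09 to 0.05 in EV-Epinephrine. SLC16A1 in EV-IL1b reached 0.

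Counts of the 10 genes called moved for Epinephrine (3 with only its 2 groups fitted), EV-C5a (1 without the low-count filter, 0 to 1 with a library left out) and the C5a difference of responses (2 without the filter, 2 to 5 with a library left out). The 8 genes called for EV-C5a became 5 on total counts, 73 without the filter, 3 at a mean count of at least 50, 3 with all 30 libraries fitted and 3 with only the 2 groups fitted, and ran from 2 to 175 with a library left out (175 without EV-Control replicate 3).

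Same-numbered libraries of the groups compared did not deviate together (correlations from -0.04 to 0.03), and the main tests did not pair them. With 3 libraries a group this cannot exclude a pairing by number. Groups given an agent were not checked against the groups given their vesicles. With the number as a replicate block, LRP1 in EV-Control against Control lost its call (adjusted p = 0.0557), and the count there was 7 in place of 8. Genes with low counts, MFSD2A among the 10, had the widest intervals.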
